A study of Homo sapiens with 14 samples.

Results

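The 5 genes NPPB, TRIM55, ANKRD2, MYL7 and LMCD1, best known from heart and skeletal muscle, were followed in OVCAR4, a human line of high-grade serous ovarian carcinoma that is widely used and established. They are 5 of the 58219 genes in the count table. They were picked, with earlier results of these data known, as muscle-linked genes among the largest increases or differences after knockdown of SOX17, of PAX8 and SOX17 together, or of MECOM. They were thus selected at least on their measured levels in siSOX17, siDual and siMECOM. Those values are given here as a description, without a test.

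RNA was sequenced from 14 libraries in 7 groups of 2. Every group was reverse transfected with a pool of small interfering RNAs (siRNAs), which direct the degradation of a matching transcript. The groups siPAX8, siSOX17, siMECOM and siWT1 received a pool against the transcription factor in their name, and in siDual the pools against PAX8 and SOX17 were combined. Non-targeting pools were given to siNT1 and siNT2, a different pool to each, and their 4 libraries are the controls. All groups shared the cell line, plating of 300000 cells, 120 nM of siRNA, fresh medium at 24 hours and harvest of total RNA at 72 hours. How the dose was divided between both pools of siDual is not given in the sources used here. Whether both libraries of a group stem from independent transfections is not given, so p-values reflect the spread among these libraries, which may be technical. In a bulk culture, fewer cells that express a gene and less of its RNA per cell cannot be told apart.

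The 5 genes belong to different parts of muscle biology. NPPB encodes the precursor of B-type natriuretic peptide, a hormone that heart muscle secretes under stretch and that acts through the membrane guanylyl cyclase NPR1. TRIM55 encodes MuRF2, a ubiquitin ligase of the sarcomere, the contractile unit of striated muscle. ANKRD2 encodes a muscle ankyrin repeat protein that shuttles between the titin filament and the nucleus, MYL7 the regulatory light chain of atrial myosin, and LMCD1 a LIM and cysteine-rich domain cofactor that binds GATA6 and, in mice, acts with the phosphatase calcineurin in heart muscle growth. The targeted factors are PAX8 and SOX17, which act in tissues of the female reproductive tract, the zinc-finger factor MECOM, and WT1, another zinc-finger factor, known from kidney development.

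Gene counts summed to between 40832825 and 49803860 per library. In the groups named for them, the targeted transcripts were at 17.3% (PAX8 in siPAX8), 13.0% (SOX17 in siSOX17), 9.69% (MECOM in siMECOM) and 2.43% (WT1 in siWT1) of their mean control level. In siDual PAX8 was at 25.2% and SOX17 at 15.2%. WT1 was near the detection floor, with 1 count in siWT1 against 75 counts over the 4 control libraries. The targeted factors also differed in groups not named for them. MECOM was at 34.3% of its control level in siSOX17, 38.0% in siDual, 75.2% in siPAX8 and 78.7% in siWT1. PAX8 was at 132% in siSOX17, 88.7% in siMECOM and 56.1% in siWT1, where it had 112.3 to 117.5 CPM against 191.8 to 225.1 CPM in the controls. SOX17 was at 72.7% in siPAX8, 207% in siMECOM and 106% in siWT1. Transcripts of mitochondrially encoded genes made up 7.91 to 11.0% of the counts in knockdown libraries and 5.34 to 6.13% in control libraries. Without those genes in the fit, the 50 fold changes of the 5 genes over 10 comparisons moved by at most 0.025 on the log2 scale.

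The 5 genes fell into 3 patterns. NPPB, TRIM55 and MYL7 were highest in siDual and siSOX17, with lower but raised levels in siPAX8. They parted in siMECOM, where MYL7 stood above its siPAX8 level and NPPB and TRIM55 stood below theirs. ANKRD2 was highest in siSOX17 and lowest in siPAX8 and siWT1. LMCD1 was highest in siMECOM, second in siSOX17 and lowest in siPAX8. A description of all 5 as induced therefore holds for siSOX17 but not for any other knockdown. All 5 passed the filter on low counts, and each had at least 13 counts in every control library.

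**Figure D1:**
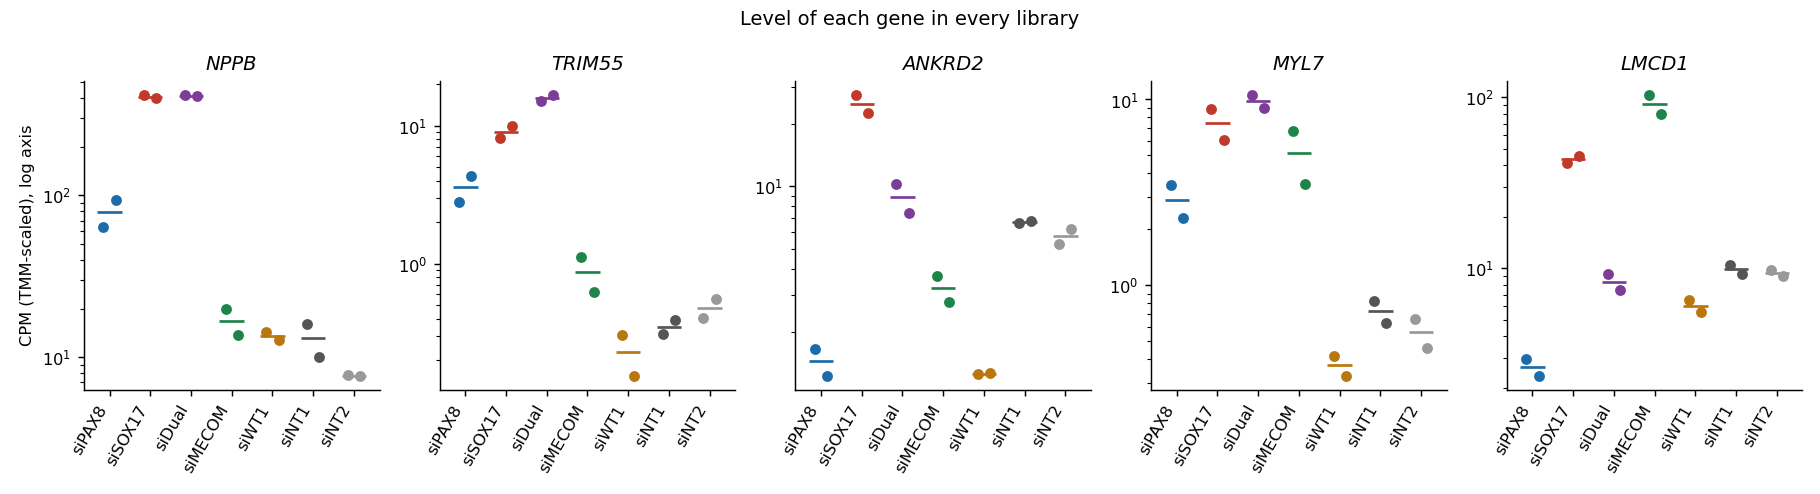
Level of each gene in CPM (read counts scaled to library size with TMM factors; log axis) in each of the 14 libraries, with a bar at the group mean of 2 libraries. NPPB reaches 417 CPM in a siSOX17 library and is lowest, at 7.66 CPM, in a siNT2 library, while LMCD1 peaks at 103.1 CPM in siMECOM.

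NPPB (ENSG00000120937.8; minus strand of chromosome 1, 11857464 to 11858931 on hg38) stood at 64.3 and 93.9 CPM in siPAX8, 417 and 399.6 CPM in siSOX17 and 415 and 409.6 CPM in siDual. It was 19.8 and 13.7 CPM in siMECOM and 14.4 and 12.7 CPM in siWT1, against 16.1 and 10.1 CPM in siNT1 and 7.76 and 7.66 CPM in siNT2. The siDual and siSOX17 libraries overlapped and stood above all others, siPAX8 stood alone between them and the rest, and siMECOM, siWT1 and siNT1 overlapped one another. Against the controls the log2 fold change was 5.35 ± 0.16 (SE) in siSOX17, 5.36 ± 0.16 in siDual and 0.74 ± 0.16 in siMECOM. The siMECOM value depended on the control pool, at 0.37 against siNT1 alone and 1.12 against siNT2 alone. In RPKM, which also divides by summed exon length, NPPB averaged 588 in siSOX17 and 594 in siDual, the highest per-length level of the 5 genes in any group, against 18.8 in siNT1 and 11.1 in siNT2.

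TRIM55 (ENSG00000147573.16; plus strand of chromosome 8, 66126896 to 66175487) was a low transcript in the controls. It stood at 2.80 and 4.35 CPM in siPAX8, 8.18 and 9.92 CPM in siSOX17 and 15.04 and 16.7 CPM in siDual. It stood at 1.12 and 0.62 CPM in siMECOM and 0.30 and 0.15 CPM in siWT1, against 0.31 and 0.39 CPM in siNT1 and 0.40 and 0.55 CPM in siNT2. No 2 groups next to each other in the order siDual, siSOX17, siPAX8, siMECOM, siNT2, siNT1, siWT1 overlapped, though the lowest 3 rest on 8 to 25 counts per library. The log2 fold change against the controls was 4.46 ± 0.22 in siSOX17, 5.27 ± 0.21 in siDual and 1.08 ± 0.31 in siMECOM. Without siMECOM replicate 1 the last value was 0.61 ± 0.38.

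MYL7 (ENSG00000106631.8; minus strand of chromosome 7, 44138864 to 44141332) was 3.48 and 2.30 CPM in siPAX8, 8.91 and 6.05 CPM in siSOX17 and 10.6 and 9.02 CPM in siDual. It was 6.76 and 3.51 CPM in siMECOM and 0.42 and 0.33 CPM in siWT1, against 0.82 and 0.63 CPM in siNT1 and 0.66 and 0.46 CPM in siNT2. All 8 libraries of siPAX8, siSOX17, siDual and siMECOM stood above the 6 others, and the siSOX17 and siMECOM libraries overlapped. The log2 fold change was 3.55 ± 0.25 in siSOX17, 3.93 ± 0.25 in siDual and 3.00 ± 0.26 in siMECOM. MYL7 was thus the gene of the 5 whose change in siMECOM came closest to that in siSOX17, and it was 2.45 ± 0.26 without siMECOM replicate 1.

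ANKRD2 (ENSG00000165887.11; plus strand of chromosome 10, 97572499 to 97583884) was already present in the controls. Its level was 1.66 and 1.23 CPM in siPAX8, 27.4 and 22.5 CPM in siSOX17 and 10.2 and 7.47 CPM in siDual. It was 3.70 and 2.77 CPM in siMECOM and 1.26 and 1.26 CPM in siWT1, against 6.65 and 6.80 CPM in siNT1 and 5.27 and 6.21 CPM in siNT2. The siSOX17 libraries stood above all others, the siDual libraries just above the controls, and the siPAX8, siMECOM and siWT1 libraries below every control library. The log2 fold change was 2.01 ± 0.13 in siSOX17, 0.51 ± 0.14 in siDual and -0.95 ± 0.16 in siMECOM. The siDual value was 0.26 without siDual replicate 1 and 0.72 without siDual replicate 2.

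LMCD1 (ENSG00000071282.11; plus strand of chromosome 3, 8501707 to 8574673) had 2.95 and 2.34 CPM in siPAX8, 41.3 and 45.6 CPM in siSOX17 and 9.26 and 7.45 CPM in siDual. It had 103.1 and 79.8 CPM in siMECOM and 6.48 and 5.53 CPM in siWT1, against 10.5 and 9.26 CPM in siNT1 and 9.82 and 9.02 CPM in siNT2. The siMECOM libraries were above the siSOX17 libraries and these above all others, siDual overlapped the controls, and siWT1 and siPAX8 lay below every control library. The log2 fold change was 2.17 ± 0.11 in siSOX17, -0.21 ± 0.13 in siDual and 3.24 ± 0.11 in siMECOM. Per length LMCD1 averaged 10.0 RPKM in siMECOM, between the 3.52 RPKM of MYL7 and the 24.2 RPKM of NPPB in the same group.

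In siMECOM, replicate 1 was the higher library for all 5 genes, including ANKRD2, which was below the controls there. Replicate 1 was also the library with the lower MECOM level, 8.76 CPM against 16.4 CPM in replicate 2. The part of that difference in the values was not tested.

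**Figure D2:**
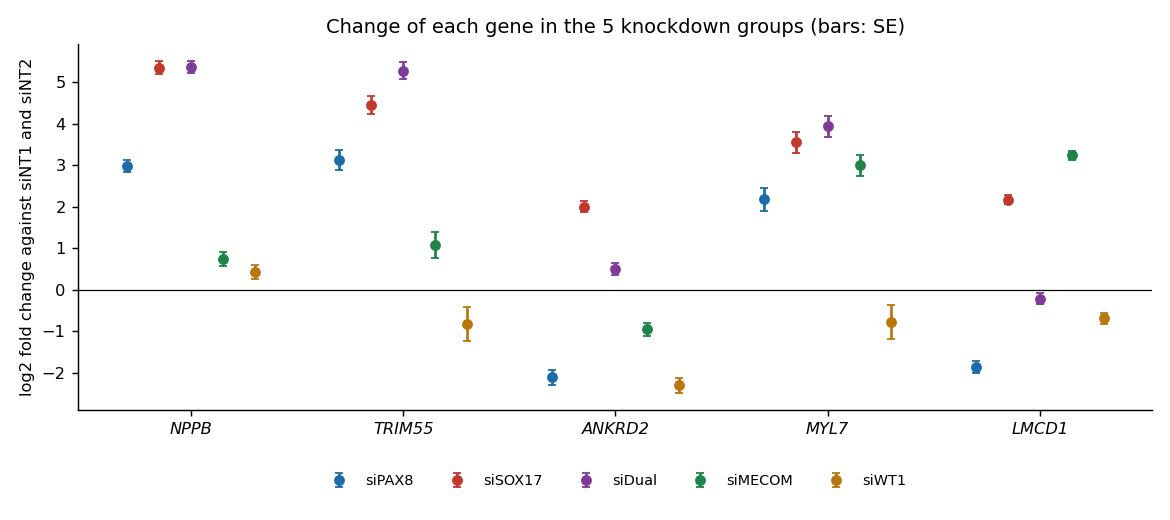
Log2 fold change of each gene against the 4 control libraries in the 5 knockdown groups of 2 libraries each (points; bars are the SE of the fit). NPPB, TRIM55 and MYL7 are above 0 in siPAX8, siSOX17, siDual and siMECOM, ANKRD2 is above 0 in siSOX17 and siDual, and LMCD1 is above 0 in siSOX17 and siMECOM.

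The wording of the choice names neither siPAX8 nor siWT1 alone, although their comparison with the controls uses the same control libraries. Differences from siPAX8 may also have counted, since earlier results were known. The tests in siPAX8 may therefore not be independent of the choice of genes. Tests were by edgeR's quasi-likelihood method with Benjamini-Hochberg adjustment over 21032 genes. In siPAX8 all 5 genes were called at an adjusted p under 0.05, against 52.2% of all genes tested, 26.9% called higher and 25.4% called lower. NPPB rose by 2.98 ± 0.15 on the log2 scale (adjusted p = 5.88e-12), TRIM55 by 3.12 ± 0.24 (adjusted p = 1.94e-09) and MYL7 by 2.18 ± 0.28 (adjusted p = 2.33e-06). ANKRD2 fell by 2.10 ± 0.18 (adjusted p = 1.12e-08) and LMCD1 fell by 1.86 ± 0.15 (adjusted p = 3.14e-09). In each case both siPAX8 libraries lay outside the range of the 4 control libraries. The median over all genes was 0.00.

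In siWT1, 3 of the 5 genes were called, against 37.5% of all genes (17.7% higher, 19.8% lower). ANKRD2 fell by 2.30 ± 0.18 (adjusted p = 1.15e-08), with both libraries between the siPAX8 libraries, and LMCD1 fell by 0.68 ± 0.13 (adjusted p = 0.000313). PAX8 was itself at 56.1% of its control level in siWT1, and its part in these changes was not tested. NPPB was called higher, at 0.44 ± 0.17 (adjusted p = 0.0446), but both siWT1 libraries lay within the control range. That call was lost with DESeq2 (adjusted p = 0.128), against siNT1 alone (0.06, adjusted p = 0.841) and on leaving out any of 9 of the 14 libraries in turn. TRIM55 (-0.82 ± 0.41, adjusted p = 0.125) and MYL7 (-0.77 ± 0.41, adjusted p = 0.153) did not pass. MYL7 was called lower without a filter on low counts (-0.76, adjusted p = 0.0272) and with a replicate block (-0.78, adjusted p = 0.0253).

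The comparison of siPAX8 with siWT1 uses no control library and no library of siSOX17, siDual or siMECOM. As siPAX8 values may have entered the choice of genes, it too may not be independent of that choice. PAX8 was below its control level in both groups. Of the 5 genes 4 were called, against 57.4% of all genes (29.5% higher in siPAX8, 27.8% lower). NPPB was higher in siPAX8 than in siWT1 by 2.54 ± 0.19 (adjusted p = 9.17e-10), TRIM55 by 3.94 ± 0.32 (adjusted p = 4.84e-09) and MYL7 by 2.95 ± 0.37 (adjusted p = 1.49e-06). LMCD1 was lower in siPAX8, at -1.18 ± 0.17 (adjusted p = 6.76e-06). ANKRD2 did not pass, at 0.20 ± 0.24 (adjusted p = 0.505), an estimate whose SE spans no change in either direction.

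Between the non-targeting pools siNT1 and siNT2, 0 of the 5 genes were called by edgeR, where 0.3% of all genes were. NPPB had the largest difference of the 5, 0.75 ± 0.20 (edgeR adjusted p = 0.164), and 1 of the 5, NPPB, had an unadjusted p under 0.05, as did 1608 of the 21032 genes. DESeq2 called 153 genes in this comparison, edgeR 63.

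The effect of each pool was set out with and without the other pool. All values here share libraries with the choice of genes or with one another, so they are set side by side without a test. With the PAX8 pool added (siDual against siSOX17), NPPB differed by 0.01 ± 0.17, MYL7 by 0.39 ± 0.24 and TRIM55 by 0.81 ± 0.19, each less than in siPAX8 against the controls. Without siSOX17 replicate 2 the NPPB value was -0.02 ± 0.21, and without siSOX17 replicate 1 the MYL7 value was 0.69 ± 0.29. ANKRD2 differed by -1.502 ± 0.16 and LMCD1 by -2.38 ± 0.14 in siDual against siSOX17, beside their changes of -2.10 and -1.86 in siPAX8 against the controls. Both siDual libraries were below both siSOX17 libraries for these 2 genes, and for LMCD1 they overlapped the controls.

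With the SOX17 pool added to the PAX8 pool (siDual against siPAX8), the log2 difference was positive for all 5 genes, between 1.65 ± 0.17 for LMCD1 and 2.61 ± 0.20 for ANKRD2. The log2 fold change in siDual was lower than the sum of the siPAX8 and siSOX17 changes by 2.97 ± 0.23 for NPPB, by 2.31 ± 0.31 for TRIM55 and by 1.79 ± 0.37 for MYL7. For LMCD1 it was below the sum by 0.52 ± 0.20, and for ANKRD2 it was above it by 0.60 ± 0.24.

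**Figure D3:**
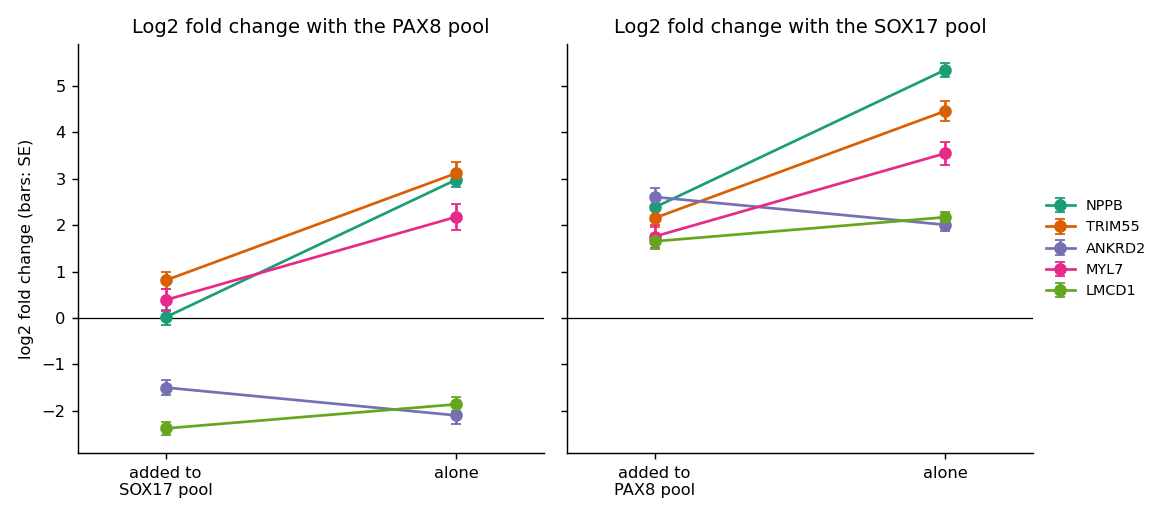
Log2 fold change with the PAX8 pool (left) and with the SOX17 pool (right), each added to the other pool or given alone against the controls (points joined per gene; bars are the SE). With the PAX8 pool, ANKRD2 and LMCD1 lie below 0 in both settings while NPPB, TRIM55 and MYL7 lie above 0 when it was given alone and nearer 0 when it was added, NPPB at 0.01 ± 0.17; with the SOX17 pool all 5 genes lie above 0 in both.

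RefSeq promoter entries (build GRCh38.p14) matched 3 of the 5 genes, MYL7, ANKRD2 and LMCD1. The windows of MYL7 and ANKRD2 are shown. That of LMCD1 is not, because an annotated exon left no bases of it to print. Both MYL7 and ANKRD2 were higher in siSOX17 yet changed in opposite directions in siPAX8. Each sequence is the 250 bases before the transcription start, read 5′ to 3′ on the strand of the gene, at chr7:44141333-44141582 (minus strand) and chr10:97572191-97572440 (plus strand).
MYL7: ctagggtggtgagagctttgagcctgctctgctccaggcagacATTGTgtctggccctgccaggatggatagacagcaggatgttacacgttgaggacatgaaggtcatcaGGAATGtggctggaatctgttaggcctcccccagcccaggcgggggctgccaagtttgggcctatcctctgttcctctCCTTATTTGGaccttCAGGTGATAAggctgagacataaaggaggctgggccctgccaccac
ANKRD2: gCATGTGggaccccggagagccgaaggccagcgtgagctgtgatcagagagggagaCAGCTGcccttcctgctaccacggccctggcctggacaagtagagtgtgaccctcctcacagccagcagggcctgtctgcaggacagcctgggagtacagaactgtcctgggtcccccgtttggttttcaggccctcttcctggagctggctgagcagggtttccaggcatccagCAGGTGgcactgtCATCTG
Capitals mark matches on either strand to 7 motifs, of which the CArG box of serum response factor (SRF) and the MEF2 site were searched by their usual consensus. The others were CATTCC (the M-CAT element of TEAD factors), GATAA (GATA factors), ACAAT (the core of SOX sites), TGANTCA (AP-1) and CANNTG (the E-box). MYL7 held a CArG box 61 to 52 bases before the start, an M-CAT element on the reverse strand at 139 to 134, an E-box at 46 to 41 that shares a base with GATAA at 41 to 37, and the SOX core on the reverse strand at 207 to 203. ANKRD2 held 4 E-boxes and no other match. Of 35116 RefSeq windows of this length, 1.16% held a CArG box, 11.9% CATTCC, 20.4% GATAA, 24.6% ACAAT and 61.8% an E-box, and 2.8% held a MEF2 site and 6.57% TGANTCA. A match describes the letters and is not evidence of binding.

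Other genes of the same pathways were taken from lists drawn up from general knowledge, with earlier results of these data known. Their counts are therefore a description and not independent of these data. Of all genes tested, 27.2% rose and 25.5% fell in siSOX17 (52.6% called), 28.9% rose and 27.3% fell in siDual (56.2% called), and 16.5% rose and 16.1% fell in siMECOM (32.6% called), beside the shares given above for siPAX8 and siWT1. In the natriuretic peptide system, the related hormone genes NPPA and NPPC were near 0, with 9 and 38 counts over all libraries. Of 5 genes tested, 2 rose in siPAX8, 2 in siSOX17 and 3 in siDual, and 0 fell there, while 1 rose and 1 fell in siMECOM and 1 rose and 2 fell in siWT1. FURIN, a protease that cleaves precursors such as that of B-type natriuretic peptide, rose by 0.99 ± 0.07 in siPAX8, 0.39 ± 0.07 in siSOX17 and 0.88 ± 0.07 in siDual, and fell by 0.72 ± 0.07 in siWT1. MME, which encodes neprilysin, a protease that degrades natriuretic peptides, rose by 1.42 ± 0.20 in siPAX8 and 1.41 ± 0.21 in siDual and fell by 1.21 ± 0.28 in siMECOM. The clearance receptor NPR3 rose by 0.69 ± 0.21 in siSOX17, 0.90 ± 0.20 in siDual and 0.59 ± 0.21 in siWT1. Its siWT1 libraries were far apart, at 36.98 ± 14.25 CPM (SD, n = 2), against 24.7 ± 4.65 CPM (SD, n = 4) in the controls. NPR1, the receptor of the hormone, had 1.51 CPM in the controls, rose by 0.65 ± 0.20 in siMECOM and fell by 0.99 ± 0.24 in siWT1.

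Among 15 tested genes of the muscle ankyrin repeat and Z-disc list, which holds proteins of the sarcomere's border and of titin, 9 rose in each of siPAX8, siSOX17 and siDual, with 1, 1 and 0 lower. The median log2 fold change was 0.99, 1.33 and 1.34 in these groups, against 0.00, -0.01 and 0.00 over all genes. In siDual MYOZ1, a calcineurin-binding Z-disc protein, rose by 5.35 ± 0.34 and XIRP1, an actin-binding protein of muscle, by 5.17 ± 0.25. XIRP1 fell by 2.46 ± 0.69 in siWT1, on 4 counts against 43 over the 4 control libraries. MYOZ1 averaged 2.93 ± 0.90 CPM (SD, n = 2) in siDual and 0.07 ± 0.02 CPM (SD, n = 4) in the controls, and XIRP1 averaged 8.11 ± 1.22 CPM in siDual and 0.22 ± 0.07 CPM in the controls. The close relative of ANKRD2, ANKRD1, had the opposite sign in both siPAX8 and siSOX17. ANKRD1 rose by 1.90 ± 0.07 in siPAX8, where ANKRD2 fell, and fell by 0.23 ± 0.08 in siSOX17, where ANKRD2 was highest. That fall was smaller than the control SD. ANKRD1 averaged 227.4 ± 11.1 CPM (SD, n = 2) in siSOX17 and 270.8 ± 51.3 CPM (SD, n = 4) in the controls. It also rose by 1.14 ± 0.07 in siDual and 0.68 ± 0.07 in siMECOM. Per length ANKRD1 was far the more abundant, at 504 RPKM in siPAX8 and 136.8 RPKM in the controls, while ANKRD2 averaged 0.99 RPKM in siPAX8, 4.63 in siNT1 and 3.95 in siNT2. In siMECOM 5 genes of the list rose and 1 fell, and in siWT1 2 rose and 4 fell. The fall in siMECOM was of LDB3, a Z-disc protein, by 2.09 ± 0.15, and LDB3 rose by 2.30 ± 0.10 in siSOX17.

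Of the muscle ubiquitin ligase list 4 genes were tested. TRIM54, of the same MuRF family as TRIM55, rose by 3.84 ± 0.50 in siPAX8, 2.64 ± 0.62 in siSOX17 and 4.75 ± 0.46 in siDual, but was called in neither siMECOM nor siWT1. It had 101 counts in siDual and 10 over the 4 control libraries. TRIM63, the third of this family, had 10 counts in siDual and 1 in the controls and did not pass the filter. FBXO32, the muscle atrophy ligase, rose by 2.47 ± 0.24 in siPAX8, 1.31 ± 0.28 in siSOX17, 2.49 ± 0.24 in siDual and 1.67 ± 0.26 in siWT1. In all, 2, 3 and 2 of the 4 rose in siPAX8, siSOX17 and siDual, 0 in siMECOM and 1 in siWT1, while 1 fell, MUSTN1 in siDual, a small nuclear protein of muscle that is no ligase.

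Among 15 tested genes of the myosin light chain list, 9 rose and 1 fell in siPAX8, 7 rose and 1 fell in each of siSOX17 and siDual, 2 rose and 3 fell in siMECOM, and 2 rose and 5 fell in siWT1. MYL9, the regulatory light chain of smooth muscle and non-muscle myosin, rose by 2.03 ± 0.13 in siSOX17 and fell by 1.01 ± 0.15 in siMECOM, where MYL7 was raised. The ventricular light chains MYL2 and MYL3 rose in siPAX8, by 2.71 ± 0.27 and 2.85 ± 0.35. MYL2 fell by 1.91 ± 0.55 in siSOX17 and by 2.31 ± 0.53 in siWT1, on 5 counts in each, against 48 in the controls. MYL3 fell by 2.30 ± 0.75 in siMECOM, on 3 counts against 32 in the controls. In RPKM, MYL7 averaged 6.72 in siDual, against 140.5 for MYL9 and 180.5 for the non-muscle chain MYL6 in the same group. MYLK, the kinase that activates myosin through its light chain, rose by 0.80 ± 0.08 in siPAX8, 1.29 ± 0.08 in siSOX17, 1.58 ± 0.08 in siDual and 0.98 ± 0.08 in siMECOM, and fell by 0.64 ± 0.09 in siWT1.

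In the LIM list of 12 tested genes, which holds relatives of LMCD1, 4 rose and 4 fell in siPAX8, 6 and 3 in siSOX17, 5 and 4 in siDual, 1 and 3 in siMECOM, and 3 and 7 in siWT1. FHL2, a LIM-only cofactor abundant in heart, rose by 1.92 ± 0.08 in siSOX17 and fell by 0.30 ± 0.09 in siMECOM, where LMCD1 was highest. PRICKLE2, of planar cell polarity, was the 1 gene of the list that rose in siMECOM (0.99 ± 0.12), and it also rose in siSOX17 (1.19 ± 0.12). The 13 calcineurin and NFAT genes split, with 6 higher and 3 lower in siPAX8, 3 and 4 in siSOX17, 7 and 4 in siDual, 3 and 1 in siMECOM, and 3 and 3 in siWT1. RCAN1, a calcineurin regulator that NFAT induces, rose by 1.43 ± 0.07 in siPAX8, 0.83 ± 0.07 in siSOX17 and 1.52 ± 0.07 in siDual and fell by 0.19 ± 0.07 in siMECOM.

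Among 18 tested cardiac and muscle transcription factors and cofactors, 9 fell and 3 rose in siPAX8, 7 fell and 4 rose in siSOX17, 8 fell and 4 rose in siDual, 7 fell and 1 rose in siMECOM, and 7 fell and 5 rose in siWT1. GATA6, the factor LMCD1 binds, fell by 0.67 ± 0.12 in siPAX8, 1.44 ± 0.13 in siSOX17, 1.76 ± 0.13 in siDual and 0.88 ± 0.12 in siMECOM. VGLL3, a cofactor of TEAD factors, rose by 1.55 ± 0.09 in siPAX8, 1.90 ± 0.09 in siSOX17 and 1.91 ± 0.09 in siDual. SRF, the factor known to bind CArG boxes, fell by 0.28 ± 0.08 in siPAX8, 0.22 ± 0.08 in siDual, 0.60 ± 0.09 in siMECOM and 1.54 ± 0.09 in siWT1, and was not called in siSOX17 (-0.02 ± 0.08). TBX5, MYOCD and SMYD1 had 0 counts in all 14 libraries, and GATA4 had 2 counts. A count of 0 allows up to 3 counts in a library, by counting error only.

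**Figure D4:**
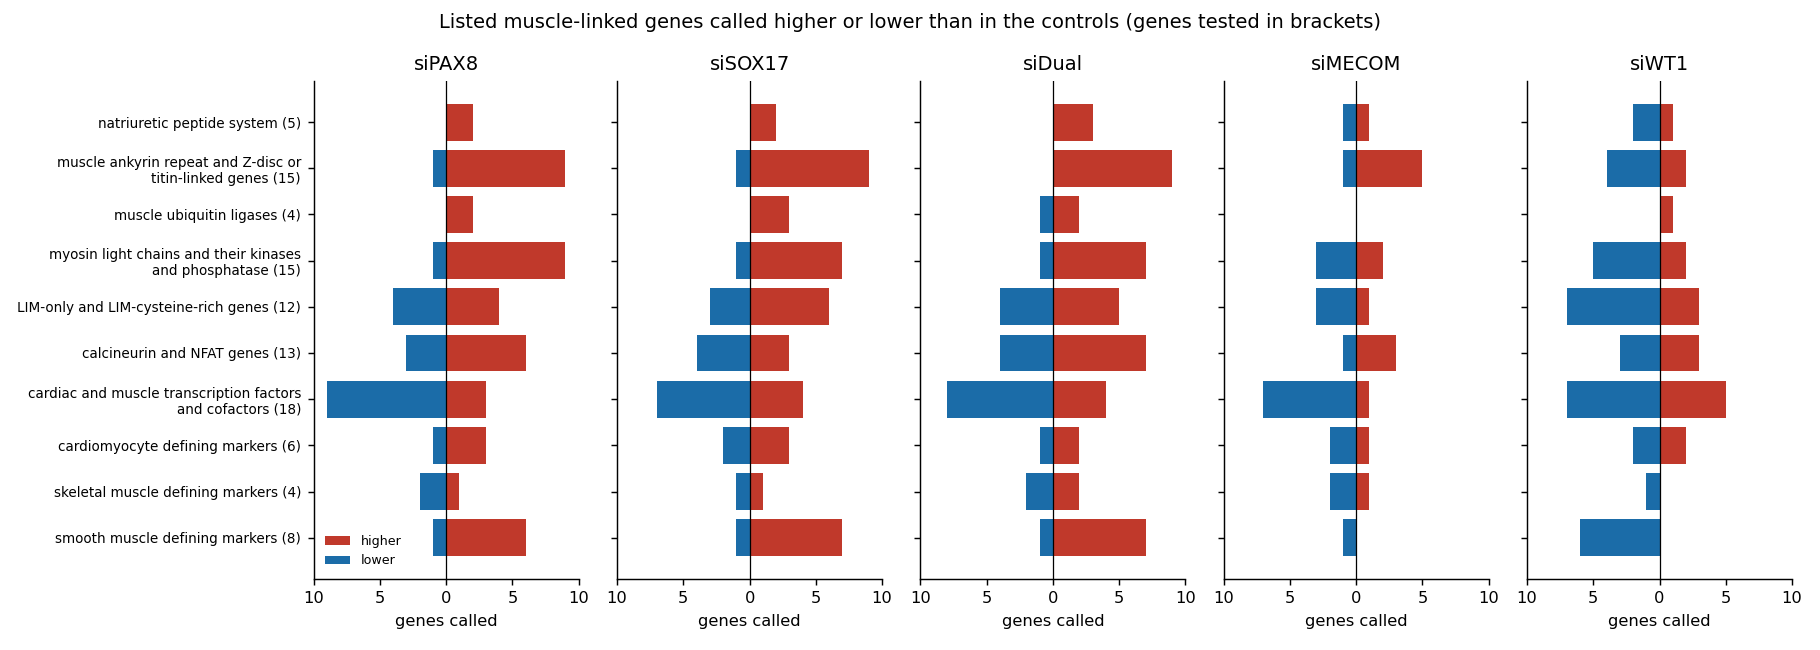
Number of genes of 10 muscle-linked lists called higher (right, red) or lower (left, blue) than the controls at an adjusted p under 0.05 in each knockdown, with the genes tested in brackets and none of the 5 genes included. In siSOX17 and siDual 7 of 8 smooth muscle markers are higher, while in siWT1 0 are higher and 6 are lower.

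The genes that define a muscle cell type were checked beside these changes. Of 10 cardiomyocyte markers 6 passed the filter, and MYH6, MYH7, MYBPC3 and PLN had 2, 6, 6 and 6 counts over all 14 libraries. The summed level of the list was 452 to 614 CPM in siPAX8, 199 to 270.4 CPM in siSOX17, 297 to 381 CPM in siDual, 275 to 311 CPM in siMECOM and 322 to 332 CPM in siWT1, against 302 to 369 CPM in the controls, most of it from TNNC1, the troponin C gene of heart and slow muscle. Of the 6, 3 rose and 1 fell in siPAX8, 3 and 2 in siSOX17, 2 and 1 in siDual, 1 and 2 in siMECOM, and 2 and 2 in siWT1. TNNT2, cardiac troponin T, rose in all 5 knockdowns, by 2.88 ± 0.24 in siPAX8, 2.56 ± 0.25 in siSOX17, 3.75 ± 0.23 in siDual, 1.34 ± 0.28 in siMECOM and 1.44 ± 0.27 in siWT1. It averaged 10.45 ± 0.77 CPM (SD, n = 2) in siDual and 0.77 ± 0.15 CPM (SD, n = 4) in the controls. SLC8A1, the cardiac sodium-calcium exchanger, went the other way and fell in all 5, by 0.53 ± 0.07 in siPAX8, 1.88 ± 0.08 in siSOX17, 1.28 ± 0.08 in siDual, 0.96 ± 0.08 in siMECOM and 0.49 ± 0.07 in siWT1. It averaged 16.4 ± 0.29 CPM (SD, n = 2) in siSOX17 and 60.98 ± 7.87 CPM (SD, n = 4) in the controls.

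Of 19 skeletal muscle markers 4 passed the filter. The lineage factors MYF5 and MYF6 had 0 counts throughout, MYOD1 had 3 and MYOG 2. The summed level was 57.9 to 94.5 CPM in the knockdown groups and 96.3 to 115 CPM in the controls, most of it TNNT1. Of the 4, 1 rose and 2 fell in siPAX8, 1 and 1 in siSOX17, 2 and 2 in siDual, 1 and 2 in siMECOM, and 0 and 1 in siWT1.

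All 8 smooth muscle markers passed the filter. In siSOX17 and siDual 7 rose and MYH11, the smooth muscle myosin heavy chain, fell, and in siPAX8 6 rose and MYH11 fell. The median log2 fold change of the 8 was 1.5 in siPAX8, 1.83 in siSOX17 and 2.51 in siDual. Their summed level was 2704 to 3031 CPM in siPAX8, 3711 to 4032 CPM in siSOX17, 4200 to 4487 CPM in siDual, 668 to 861 CPM in siMECOM and 519 to 693 CPM in siWT1, against 926 to 1222 CPM in the controls. In siMECOM 0 rose and TAGLN, an actin-binding protein of smooth muscle, fell by 0.57 ± 0.15, and in siWT1 0 rose and 6 fell. LMOD1, which nucleates actin filaments, rose by 2.05 ± 0.17 in siPAX8, 2.56 ± 0.17 in siSOX17 and 2.92 ± 0.17 in siDual, and fell by 1.599 ± 0.22 in siWT1. ACTG2, the enteric smooth muscle actin, rose by 2.43 ± 0.30, 3.83 ± 0.27 and 3.92 ± 0.26 in siPAX8, siSOX17 and siDual. The part of these markers in the levels of the 5 genes was not tested.

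Markers of the line itself were present in every library. Among 9 serous ovarian cancer markers, KRT7, KRT8, KRT18 and EPCAM averaged between 226 and 1598 CPM in the controls, while mesothelin (MSLN) averaged 0.90 CPM. KRT8 and KRT18, keratins of simple epithelia, rose by 2.64 ± 0.11 and 2.64 ± 0.13 in siDual. The summed level of the 9 was 18350 to 21020 CPM in siDual and 4231 to 5015 CPM in the controls. Of the 9, 4 rose and 3 fell in siPAX8, 6 and 2 in siSOX17, 5 and 3 in siDual, 1 and 4 in siMECOM, and 0 and 5 in siWT1, with the targeted PAX8 among them. Of 7 blood and endothelial markers, the leukocyte gene PTPRC had 34 counts over all 14 libraries, and the summed level of the list was 15.9 to 59.8 CPM in the knockdown groups and 26.7 to 31.9 CPM in the controls. Of 5 that were tested, 4 rose and 0 fell in siPAX8, 1 and 2 in siSOX17, 1 and 2 in siDual, 0 and 1 in siMECOM, and 1 and 3 in siWT1.

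Neighbouring genes within 100 kb were examined for each locus. NPPB had 6 neighbours that passed the filter, and their log2 fold changes in siSOX17 ran between -0.33 and 0.66, against 5.35 for NPPB. Of the 6, 4 were called higher and 1 lower in siSOX17, where 27.2% of all genes rose and 25.5% fell. The calls in siDual were 3 higher and 1 lower. ANKRD2 had 7, of which 2 were called higher and 2 lower in siSOX17. The largest increase there was that of HOGA1, 0.4 kb away, a mitochondrial enzyme of hydroxyproline breakdown (1.20 ± 0.20). The genes were chosen on siSOX17 and siDual among others, so calls of their neighbours there are a description. MYL7 had 11, with values between -0.40 and 1.61 in siSOX17 and between -0.75 and 2.11 in siDual. Of the 11, 7 were called higher and 1 lower in siSOX17, where 27.2% of all genes rose and 25.5% fell. In siDual 6 were called higher and 2 lower, where 28.9% rose and 27.3% fell. The highest value in both groups belonged to RASA4CP, a pseudogene 97 kb away whose reads are uncertain because near-identical copies exist. TRIM55 had 0.

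LMCD1 had 2 neighbours, and both were higher in siMECOM. SSUH2, 44.7 kb away on the minus strand, had 73 and 79 counts in siMECOM, against 3 and 3 in siNT1 and 5 and 3 in siNT2. Its log2 fold change was 4.37 ± 0.38, given without a test because LMCD1 was chosen on this group. SSUH2 did not follow LMCD1 in siSOX17, where it had 0 and 2 counts. In siPAX8, where LMCD1 was lowest, SSUH2 had 0 and 0 counts, a lower value that rests on control counts near the floor. LMCD1-AS1, an antisense gene that overlaps LMCD1, had 56 and 42 counts in siMECOM and 23 and 15 in siSOX17, against 4, 6, 10 and 6 in the controls. Its log2 fold change was 2.91 ± 0.34 in siMECOM and 1.84 ± 0.41 in siSOX17, given without a test because these groups chose LMCD1. The strand setting of the counting is not stated, so reads of LMCD1 and LMCD1-AS1 cannot be told apart, but LMCD1-AS1 held 222 counts in all and LMCD1 4684 in a single siMECOM library.

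**Figure D5:**
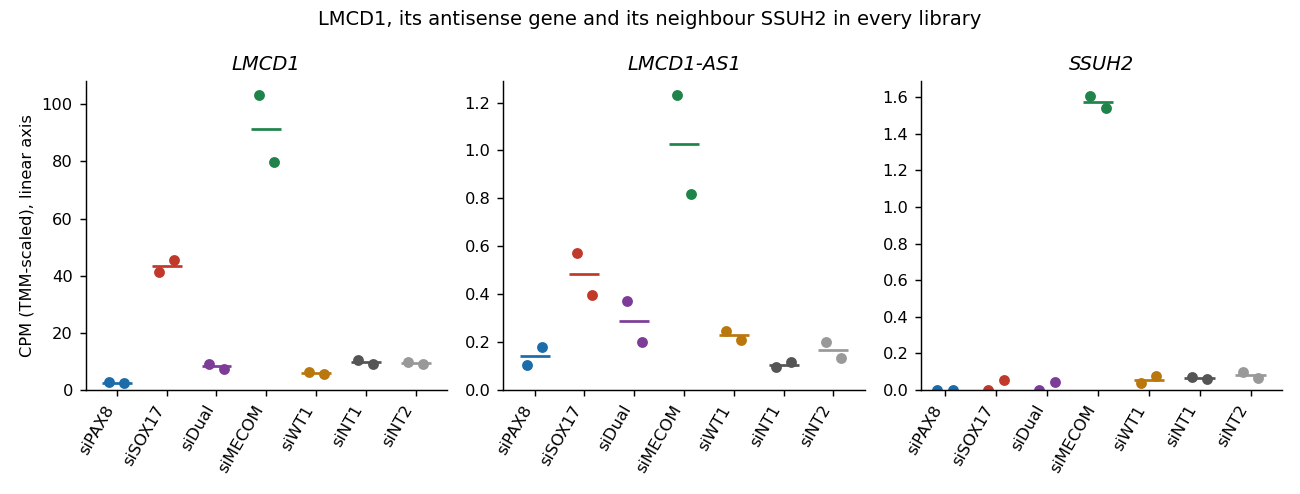
LMCD1, its antisense gene LMCD1-AS1 and the neighbour SSUH2 in CPM (linear axes that start at 0 and differ between panels) in each of the 14 libraries, with a bar at group means where both libraries have counts. All 3 are highest in both siMECOM libraries, and SSUH2 is near 0 in every other group.

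For each gene the 3 protein-coding genes of most similar pattern were ranked among 12670 candidates by Pearson's r of log2 CPM over the 14 libraries. These libraries are 7 groups of 2 that share libraries with the choice of genes, so r is a description. For TRIM55 they were CAV2 (r = 0.995, Spearman's rho = 0.996), which encodes a caveolin of membrane invaginations, YIPF5 (0.987) and TMEM45A (0.986). CAV2 averaged 161.5 CPM in siDual, 117 CPM in siSOX17 and 79.9 CPM in siPAX8, against 29.7 CPM in siNT1 and 31.2 CPM in siNT2. For NPPB they were PTS, CCDC107 and UBE2J1 (each r = 0.982). UBE2J1, a ubiquitin-conjugating enzyme of the endoplasmic reticulum, averaged 368 CPM in siDual and 357 CPM in siSOX17, against 99.3 CPM in siNT1 and 96.4 CPM in siNT2.

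For ANKRD2 they included LAD1 (r = 0.978), which encodes ladinin of the basement membrane, and EPS8L2 (0.946). LAD1 averaged 187 CPM in siPAX8, 459 CPM in siSOX17 and 176 CPM in siWT1, against 285 CPM in siNT1 and 263 CPM in siNT2, a narrower range than that of ANKRD2. For MYL7 they were the carboxypeptidase M gene (symbol CPM, r = 0.983), SLC37A1 (0.975), a sugar phosphate transporter, and METTL23 (0.974). For LMCD1 they were LYRM1 (r = 0.972), the sialyltransferase gene ST6GAL2 (0.960) and DNAJC22 (0.959). ST6GAL2 averaged 47.3 CPM in siMECOM, 12.9 CPM in siSOX17 and 2.496 CPM in siPAX8, against 6.86 CPM in siNT1 and 6.95 CPM in siNT2.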

How the data were processed

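The libraries were made from total RNA by a standard BGI sequencing protocol, per the labels. The authors deposited raw integer read counts for each gene, mapped to hg38. The submitters' processing notes name STAR 2.5.1b and featureCounts 1.6.3, and the annotation, strand setting and filters are not given in the sources used here. Other deposited columns held gene positions and strand, used for loci and neighbours, and gene length in bases, used only for RPKM. Gene names came from GENCODE 29, which matched 57881 of 58219 identifiers.

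The edgeR 4.0.16 function filterByExpr, with a minimum count of 10 and a minimum total of 15, kept 21032 genes, and libraries were scaled by TMM, the trimmed mean of M-values. A single quasi-likelihood model (R 4.3.3) held the 7 groups with 7 residual degrees of freedom and a coefficient of variation between libraries of 7.6%. The reference for a knockdown was the average of both control groups. A gene was called at a Benjamini-Hochberg adjusted p under 0.05. SDs are over the 2 libraries of a group or the 4 control libraries, and SEs divide a log2 fold change by the root of its F statistic. The script was tested on simulated data. Alternatives were DESeq2 1.42.0, other scaling and filters, a replicate term, single control pools, fewer groups, no mitochondrial genes and leaving out each library.

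The members and lists were chosen with earlier results of these data known. Named list genes were at most 3 called in each direction per knockdown, plus close relatives. A gene that the naming rule takes is not reported here. Promoters came from RefSeq, and neighbours within 100 kb from the gene positions deposited with the counts. Library totals of 40832825 to 49803860 do not remove counting error for low transcripts such as TRIM55 and MYL7.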

Additional observations from a re-analysis of the deposited data

How the results depend on the processing

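The 5 changes in siPAX8 and the 4 called differences between siPAX8 and siWT1 kept their direction and their side of the threshold under every alternative run, as did ANKRD2 and LMCD1 in siWT1. In siPAX8, NPPB ran between 2.60 and 3.36 on the log2 scale, TRIM55 between 2.77 and 3.40, MYL7 between 1.84 and 2.45, ANKRD2 between -2.34 and -1.90 and LMCD1 between -2.05 and -1.71. The increase of NPPB in siWT1 was 0.45 with DESeq2 (adjusted p = 0.128), 0.061 against siNT1 alone (adjusted p = 0.841) and 0.28 to 0.62 on leaving out single libraries (adjusted p from 0.0045 to 0.271). The call was lost without siNT1 replicate 2 or without either library of siNT2, siWT1, siSOX17 or siDual. MYL7 in siWT1 passed without a filter on low counts (-0.76, adjusted p = 0.0272) and with a replicate block (-0.78, adjusted p = 0.0253). For siNT1 versus siNT2, 63 genes were called, against 153 with DESeq2, 232 without a filter, 150 with the replicate block and 11 to 77 on leaving out single libraries, and NPPB passed without a filter (0.76, adjusted p = 3.18e-09). On leaving out single libraries the count ran between 4096 (without siMECOM replicate 2) and 7044 for siMECOM against controls, and 1822 (without siDual replicate 2) and 3355 for siDual against siSOX17. It ran between 2636 (without siDual replicate 1) and 4220 for siDual against siPAX8. The cause of these changes was not tested.

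The replicate numbers were not taken to pair samples. Over 21 pairs of groups the correlation of same-numbered deviations ran between -0.018 and 0.161, with 7 over 0.1. The block moved the other counts of called genes by less than 1.5 times. TRIM55 and MYL7 are limited by counts of 8 to 35 per control or siWT1 library.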
